A study of Mus musculus with 7 samples.

Results

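Cyclic nucleotide phosphodiesterases are described here from the deposited read counts of mouse cardiomyocytes: Pde1a, Pde1c, Pde2a, Pde3a, Pde3b, Pde4a, Pde4b, Pde4d, Pde5a and Pde7a. These 10 genes were taken by symbol from a table of 23337 genes, and each of the 10 was found once and passed the filter on low counts. Heart muscle cells were compared between postnatal day 6 (P6, 4 libraries, P6a to P6d) and postnatal day 30 (P30, 3 libraries, P30a to P30c). Both ages have the same genotype label, Rosa-Tom/Cas9, and both were given AAV9-cTNT-Cre, an adeno-associated virus in which the cardiac troponin T promoter drives Cre recombinase, on postnatal day 1. That promoter confines recombination to cells in which it is active, and the cells were purified by fluorescence-activated sorting after collagenase perfusion. The labels do not say which allele each mouse carried, whether animals were pooled or whether each library had its own animal. P-values here therefore cover the spread among these libraries alone, and that spread may be technical. The interval after virus injection was longer at P30 and cannot be told apart from age.

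Cyclic AMP and cyclic GMP are second messengers, made by adenylyl and guanylyl cyclases and broken down by phosphodiesterases. In heart muscle, cyclic AMP raised by adrenergic stimulation activates protein kinase A (PKA), which phosphorylates calcium channels, the ryanodine receptor, phospholamban and troponin I, while cyclic GMP acts mainly through protein kinase G. Phosphodiesterases differ in the nucleotide they take: PDE4 and PDE7 hydrolyse cyclic AMP, PDE5 cyclic GMP, and PDE1, PDE2 and PDE3 both. They also differ in what regulates them, and anchoring near their targets lets them confine a signal to a part of the cell.

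The members share a short signature in the catalytic domain, whose opening histidine and aspartate help to hold the catalytic metal ions. It is shown to compare the paralogues over this stretch alone. Pde3a and Pde3b, and Pde4a against Pde4b and Pde4d, went opposite ways with age. Each line gives the 36 coding bases of the signature's 12 residues, 5′ to 3′, from the GENCODE M21 transcripts (GRCm38), with capitals on the codons of the histidine, aspartate and histidine at residues 1, 2 and 5.
Pde1a (chr2:79887855-79887890, minus strand, exon 8 of transcript Pde1a-204): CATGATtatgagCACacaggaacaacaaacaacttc
Pde1c (chr6:56158941-56158976, minus strand, exon 8 of transcript Pde1c-201): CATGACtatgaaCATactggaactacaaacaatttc
Pde2a (chr7:101508482-101508517, plus strand, exon 24 of transcript Pde2a-202): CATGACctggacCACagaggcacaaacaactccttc
Pde3a (chr6:141487899-141487934, plus strand, exon 12 of transcript Pde3a-201): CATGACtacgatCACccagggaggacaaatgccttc
Pde3b (chr7:114526921-114526956, plus strand, exon 12 of transcript Pde3b-201): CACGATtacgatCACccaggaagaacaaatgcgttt
Pde4a (chr9:21204375-21204410, plus strand, exon 11 of transcript Pde4a-202): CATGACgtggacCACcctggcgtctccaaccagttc
Pde4b (chr4:102599694-102599729, plus strand, exon 11 of transcript Pde4b-207): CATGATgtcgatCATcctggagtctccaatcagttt
Pde4d (chr13:109939313-109939348, plus strand, exon 13 of transcript Pde4d-209): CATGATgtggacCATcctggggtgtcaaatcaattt
Pde5a (chr3:122824966-122825001, plus strand, exon 14 of transcript Pde5a-204): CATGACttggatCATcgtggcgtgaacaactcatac
Pde7a (chr3:19233715-19233750, minus strand, exon 8 of transcript Pde7a-201): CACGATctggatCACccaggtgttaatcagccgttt

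Of the 12 residues, 4 were the same in all 10 genes, at positions 1, 2, 5 and 7. The stretch was located by a pattern that requires the residues at 1, 2 and 5, so their identity was set in advance. The pattern also limits the choice at some other positions, 7 among them. The 5 pairs within a subfamily (Pde1a with Pde1c, Pde3a with Pde3b, and the 3 PDE4 genes with each other) had all 12 residues in common while 28 to 30 of the 36 bases were identical. Pairs from different subfamilies shared 5 to 10 residues, with Pde2a and Pde5a closest by residues.

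Libraries held 10594932 to 51427646 counts, and 3 counts corresponded to between 0.0553 and 0.271 CPM, counts per 1000000 of the library size after scaling by TMM, a trimmed mean that offsets differences in RNA composition. The 10 genes together took 4849 to 23088 counts per library. Spearman correlations over genes were 0.957 to 0.975 within an age and 0.934 to 0.952 between ages. Genes with a count numbered 14476 to 15692 at P6 and 15720 to 18223 at P30, although P6c had the most counts. With the filter on low counts left off, log2 fold changes (P30 over P6) of 19954 genes had a median of 0.22. With the filter on, 12561 genes were left and their median was -0.02. The part of this shift in the rises of genes with few counts, Pde4c among them, was not tested. The 8 markers of heart muscle cells were present in each library and summed to 63263 to 75604 CPM at P6 and 94252 to 96988 CPM at P30. Most of that sum's rise was Myh6, with 26977 to 40316 CPM at P6 and 54701 to 58678 CPM at P30. Of the 8, Myh6, Ttn, Ryr2 and Tnni3 were higher by edgeR and 4 were not called, with a median log2 fold change of 0.17, and library totals gave 3 higher and 4 lower. The edgeR quasi-likelihood test called 54.1% of 12561 tested genes at a Benjamini-Hochberg adjusted p under 0.05, with 26.3% higher and 27.8% lower at P30.

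The question was how transcripts of this family differ between the ages. Pde4a, Pde2a, Pde7a and Pde3a rose and Pde3b, Pde4b and Pde4d fell from P6 to P30, while Pde1c, Pde1a and Pde5a did not pass the test. Pde4a, which encodes a phosphodiesterase specific for cyclic AMP, rose 3.37-fold, whereas its paralogue Pde4b fell 2.01-fold. Within PDE3, Pde3a rose 1.41-fold and Pde3b fell 4.88-fold. The counts of 4 higher and 3 lower of 10 stand beside 26.3% higher and 27.8% lower among all tested genes, and 7 of 10 members had CPM ranges that did not overlap between the ages against 56.6% of tested genes, so neither count sets the family apart. The median log2 fold change of the members was 0.24, against -0.02 for all tested genes. Scaled by library totals in place of TMM, which moved the median of all genes to -0.20, 3 members were higher and 4 lower. Over all tested genes the split went from 3307 higher and 3490 lower to 2408 higher and 4658 lower.

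**Figure D1:**
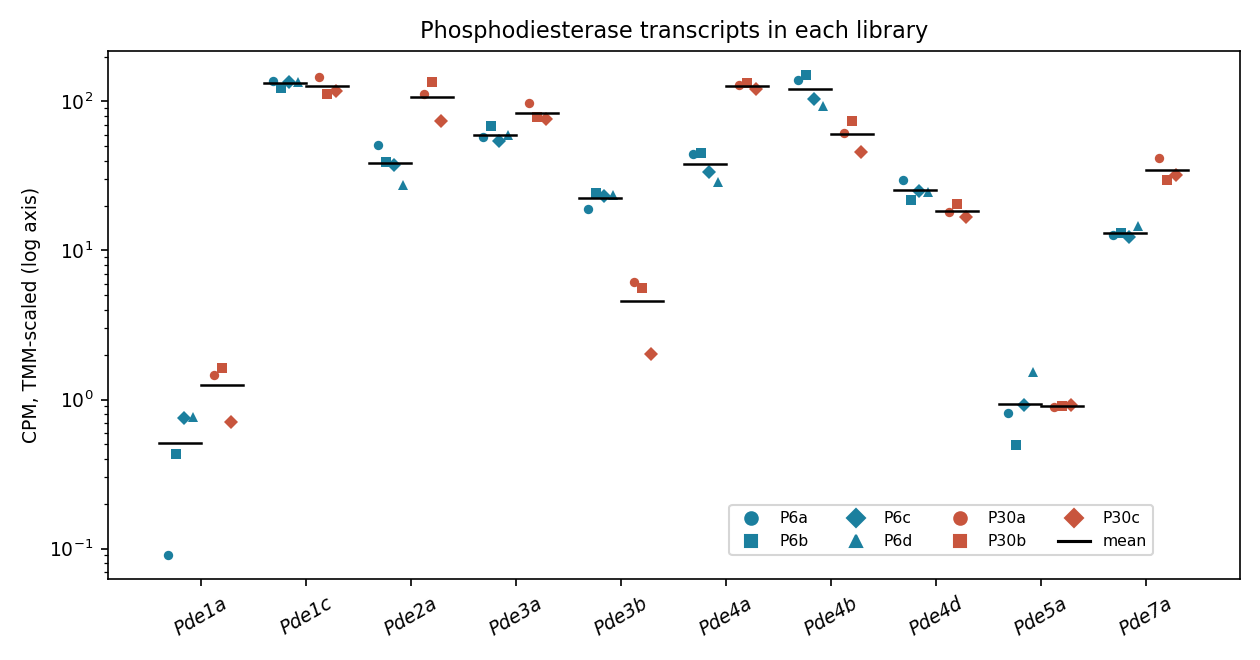
CPM (TMM-scaled, log axis) of the 10 phosphodiesterase genes in each library, with P6 in blue, P30 in red, a marker shape for each library letter and a black bar at the mean. The ages part for 7 genes, upward at P30 for Pde2a, Pde3a, Pde4a and Pde7a and downward for Pde3b, Pde4b and Pde4d, and the P6a point of Pde1a rests on 1 count.

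PDE4 enzymes are the targets of rolipram and provide much of the cyclic AMP hydrolysis in rodent heart muscle cells. Pde4a (chromosome 9, 21165714 to 21213248, plus strand) had 44.1, 44.8, 33.4 and 28.9 CPM at P6 (a to d) and 129, 133 and 121 CPM at P30 (a to c). The lowest P30 library was far above the highest P6 library. The means were 37.8 ± 7.93 CPM (SD, n = 4) and 127 ± 6.11 CPM (SD, n = 3), with a log2 fold change of 1.75 ± 0.15 (SE; edgeR adjusted p = 1.7e-05).

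Pde4b (chromosome 4, 102087543 to 102607259, plus strand) went the other way. It had 140, 151, 104 and 93.4 CPM at P6 (a to d) and 61.8, 74.3 and 45.9 CPM at P30 (a to c). P6a and P6b were above P6c and P6d, as they were for Pde4a, and P30c was the lowest library. The same P6 libraries stood apart in some immediate early genes, named after their values were seen: Nr4a1 had 421 and 475 CPM in P6a and P6b and 63.4 and 63.5 CPM in P6c and P6d, and Atf3 had 67.6 and 88.6 against 22.7 and 22.5 CPM. The part of this split in the PDE4 values was not tested. Its log2 fold change was -1.01 ± 0.20 (edgeR adjusted p = 0.00241). In bulk RNA, fewer cells of a kind and less RNA per cell cannot be told apart, for this gene and the others.

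Pde4d (chromosome 13, 108449948 to 109953461, plus strand), whose product is found with the ryanodine receptor complex, had 29.9, 21.7, 25.0 and 24.6 CPM at P6 (a to d) and 18.2, 20.4 and 16.8 CPM at P30 (a to c). The ages did not overlap, but P6b and P30b lay close together. The log2 fold change of -0.45 ± 0.14 passed the test (edgeR adjusted p = 0.0207), and the call was lost without P30a (edgeR adjusted p = 0.0661) or without P30c (0.0747). Counts were per gene, so the long and short forms that PDE4 genes make from several promoters were not separated.

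Because Pde4a rose while Pde4b and Pde4d fell, the summed CPM of the 3 genes overlapped between the ages, with 147 to 217 CPM at P6 and 183 to 227 CPM at P30. Their make-up did not overlap. Pde4a held 20.6%, 20.7%, 20.6% and 19.7% of the counts of these 3 genes at P6 (a to d) and 61.7%, 58.4% and 65.8% at P30 (a to c). Pde4b held 63.6% to 69.4% at P6 and 25.0% to 32.7% at P30. The P6 share of Pde4a varied by an SD of 0.485 percentage points although the summed PDE4 level of P6a and P6b (214 and 217 CPM) was above that of P6c and P6d (162 and 147 CPM). Counts per kilobase of merged exons gave Pde4a 26.5% ± 0.533 at P6 and 69.8% ± 3.41 at P30.

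**Figure D2:**
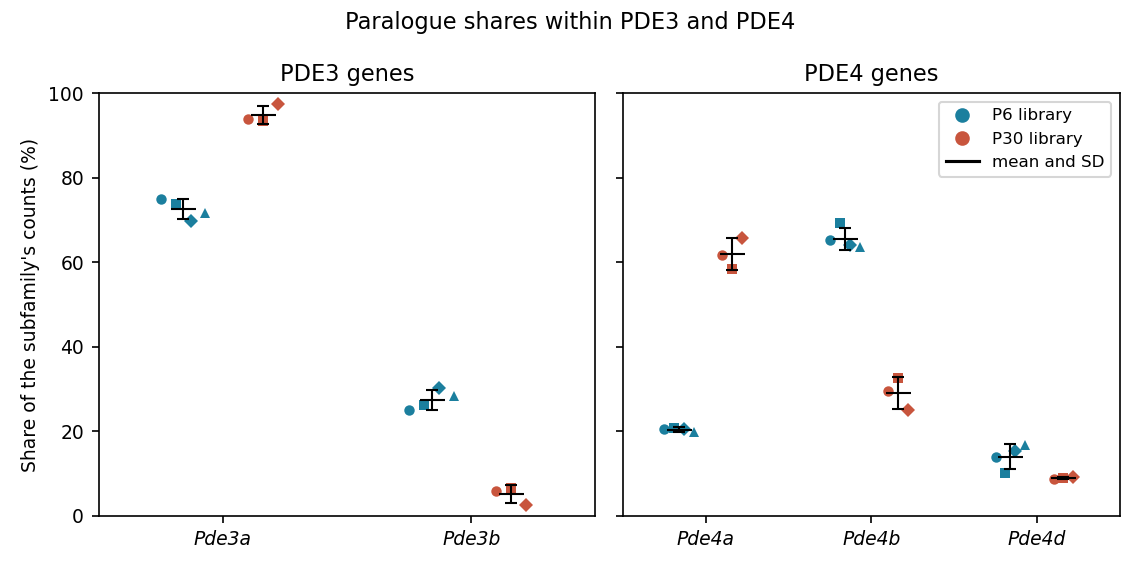
Share of each gene in the summed raw counts of its subfamily's members in each library (percent), PDE3 on the left and PDE4 on the right. P6 is in blue, P30 in red, and black bars give the mean and SD. The PDE4 sum holds Pde4a, Pde4b and Pde4d, without Pde4c. Pde4a and Pde4b change places as the leading PDE4 gene, and Pde3a goes from 72.6% to 94.9% of PDE3 counts.

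PDE3 enzymes hydrolyse cyclic AMP and are inhibited by cyclic GMP, and they are the targets of milrinone, a drug that strengthens the heartbeat. Pde3a (chromosome 6, 141249269 to 141507448, plus strand), whose product acts near the calcium pump of the sarcoplasmic reticulum, had 57.3, 68.1, 54.0 and 59.1 CPM at P6 (a to d) and 97.0, 78.4 and 76.0 CPM at P30 (a to c). P30a was the highest library, and the other two P30 libraries lay just above P6b. The log2 fold change was 0.49 ± 0.12 (edgeR adjusted p = 0.00618), and with library totals it was 0.31 and did not pass (edgeR adjusted p = 0.0601).

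Pde3b (chromosome 7, 114415281 to 114539251, plus strand), the PDE3 form known from insulin action in fat cells, had 19.1, 24.2, 23.3 and 23.5 CPM at P6 (a to d) and 6.14, 5.56 and 2.03 CPM at P30 (a to c). It had the largest fall among the members, and P30c, with 29 counts, was the lowest library. Its log2 fold change was -2.29 ± 0.30 (edgeR adjusted p = 2.1e-04), and it lay between -2.56 and -1.94 with single libraries left out. Pde3b made up 25.0% to 30.2% of PDE3 counts at P6 and 5.95%, 6.62% and 2.61% at P30 (a to c). Per kilobase of the longest coding transcript its share was 41.4% ± 2.81 at P6 and 9.03% ± 3.73 at P30, and the ages again did not overlap. The summed CPM of PDE3 overlapped between the ages, with 76.4 to 92.3 CPM at P6 and 78.0 to 103 CPM at P30.

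PDE2 hydrolyses both nucleotides and is stimulated by cyclic GMP, so it can lower cyclic AMP when cyclic GMP rises. Pde2a (chromosome 7, 101421691 to 101512827, plus strand) had 50.7, 39.4, 37.7 and 27.3 CPM at P6 (a to d) and 113, 134 and 73.8 CPM at P30 (a to c). It was higher in each P30 library than in any P6 library, and its spread at P30 was wide, with P30b highest and P30c lowest. On the log2 scale the fold change was 1.47 ± 0.23 (edgeR adjusted p = 4.9e-04).

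Pde2a is also known from endothelial cells, and markers of those cells moved with it. Of 8 endothelial markers, 7 were higher at P30, beside 26.3% of all tested genes, and Vwf did not pass the test. The markers called higher numbered 5 without P30b, 6 with library totals, and 8 without P6b or with no filter. Their summed level was 86.7 to 168 CPM at P6 and 288 to 565 CPM at P30. The marker sum was 398, 565 and 288 CPM at P30 (a to c), the same order as Pde2a. Pde2a was 0.284, 0.237 and 0.257 times the marker sum in these libraries and 0.235, 0.235 and 0.233 times in P6b to P6d. P6a stood apart, with the lowest marker sum, the highest Pde2a of the P6 libraries and a value of 0.584. This ratio was chosen after its values were seen, and the part of endothelial RNA in the Pde2a difference was not tested.

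**Figure D3:**
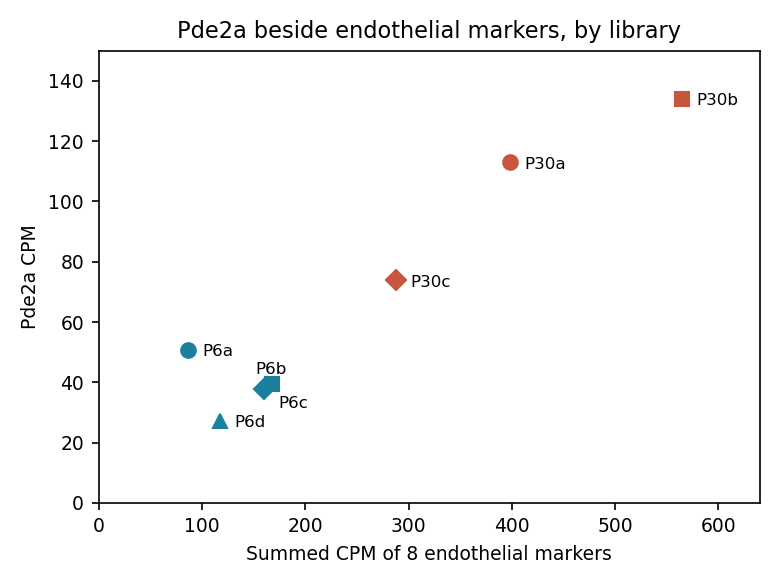
Pde2a CPM against the summed CPM of 8 endothelial markers (Pecam1, Cdh5, Kdr, Tie1, Tek, Emcn, Egfl7 and Vwf) in each library, with P6 in blue and P30 in red, both axes from 0. The P30 libraries lie higher on both axes, and P6a has more Pde2a than the other P6 libraries at the lowest marker sum.

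Marker lists of other cell types gave mixed results, beside 26.3% higher and 27.8% lower among all tested genes. The 7 immune markers found were all higher at P30 (4 without P30b) and summed to 2.25 to 5.23 CPM at P6 and 12.8 to 43.4 CPM at P30. Fibroblast markers summed to 158 to 391 CPM at P6 and 137 to 313 CPM at P30, with 1 of 7 tested lower (Postn) and 6 not called. This list changed with single libraries: 2 were higher and 1 lower without P6b, 1 higher and 1 lower without P30a, and 2 lower without P30b, with a median log2 fold change between -0.70 and 0.19. Smooth muscle and pericyte markers summed to 1424 to 2491 CPM at P6 and 1327 to 2170 CPM at P30. Most of that sum was Acta2, with 915 to 2075 CPM at P6 and 806 to 1703 CPM at P30, so it says little about the others. Of the 8, Myh11, Pdgfrb, Rgs5 and Kcnj8 were the 4 higher (2 without P30a) and Cnn1 the 1 lower. Acta2, Tagln and Abcc9 were not called. Neural and Schwann cell markers summed to 3.71 to 4.98 CPM at P6 and 3.24 to 4.72 CPM at P30, with 0 called of 1 tested by edgeR. None of the erythroid markers passed the filter on low counts, and of those found Hba-a1 and Hba-a2 were at 0 in each library. Hbb-bs and Hbb-bt were not found. The rule for reads that match several genes is not given, so these zeros do not show whether erythroid RNA was absent. The part of these cells in the results was not tested.

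PDE1 enzymes are activated by calcium and calmodulin. Pde1c (chromosome 6, 56069804 to 56569103, minus strand), the form found in heart muscle cells, had 138, 123, 134 and 136 CPM at P6 (a to d) and 146, 113 and 118 CPM at P30 (a to c). The ages overlapped, and P30a was the highest and P30b the lowest of the 7 libraries. The log2 fold change was -0.08 ± 0.11 (edgeR adjusted p = 0.546). It was -0.26 with library totals (edgeR adjusted p = 0.048) and -0.30 with a transcript length trend removed (0.0323), so the call depended on the scaling.

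Pde1a (chromosome 2, 79834453 to 80129458, minus strand) was near the lower limit, with 1, 13, 41 and 9 counts at P6 (a to d) and 26, 25 and 10 counts at P30 (a to c). These counts gave 0.0905 to 0.760 CPM at P6 and 0.702 to 1.62 CPM at P30, and the ages overlapped. The log2 fold change of 1.22 ± 0.54 did not pass the test (edgeR adjusted p = 0.0816).

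PDE7 is specific for cyclic AMP and, unlike PDE4, is not blocked by rolipram. Pde7a (chromosome 3, 19223108 to 19311322, minus strand) had 12.7, 13.0, 12.3 and 14.7 CPM at P6 (a to d) and 41.7, 29.7 and 32.1 CPM at P30 (a to c). The P6 libraries lay close together and each P30 library was above them, P30a most. The rise was 1.39 ± 0.14 on the log2 scale (edgeR adjusted p = 4.5e-05).

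PDE5, which hydrolyses cyclic GMP and is the target of sildenafil, had few transcripts. Pde5a (chromosome 3, 122728947 to 122859374, plus strand) had 9, 15, 50 and 18 counts at P6 (a to d) and 16, 14 and 13 counts at P30 (a to c). This corresponded to 0.499 to 1.52 CPM at P6 and 0.893 to 0.912 CPM at P30, and the P30 range lay inside that of P6. No difference was detected, with a log2 fold change of -0.01 ± 0.44 (edgeR adjusted p = 0.991).

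Shares of the 10-gene sum do not depend on library scaling, and they are given as a description with no test. Pde1c and Pde4b led the raw counts at P6, with 29.5% ± 3.51 and 26.6% ± 3.73 (SD, n = 4). At P30 Pde4a led with 22.7% ± 1.93 (SD, n = 3), followed by Pde1c with 22.4% ± 2.86 and Pde2a with 18.7% ± 3.79. Pde4b fell back to 10.7% ± 1.68, Pde3b went from 5.01% ± 0.824 to 0.786% ± 0.320, and Pde7a from 2.93% ± 0.459 to 6.14% ± 0.954. The share of Pde3a overlapped between the ages (11.6% to 14.4% and 13.3% to 15.8%), and so did the combined share of the genes specific for cyclic AMP (39.5% to 47.4% and 40.7% to 44.2%). The Pde1c share did not overlap (25.3% to 33.1% at P6 and 19.1% to 24.3% at P30), although its CPM did. The 10 genes summed to 409 to 493 CPM at P6 and 487 to 615 CPM at P30, ranges that overlapped.

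**Figure D4:**
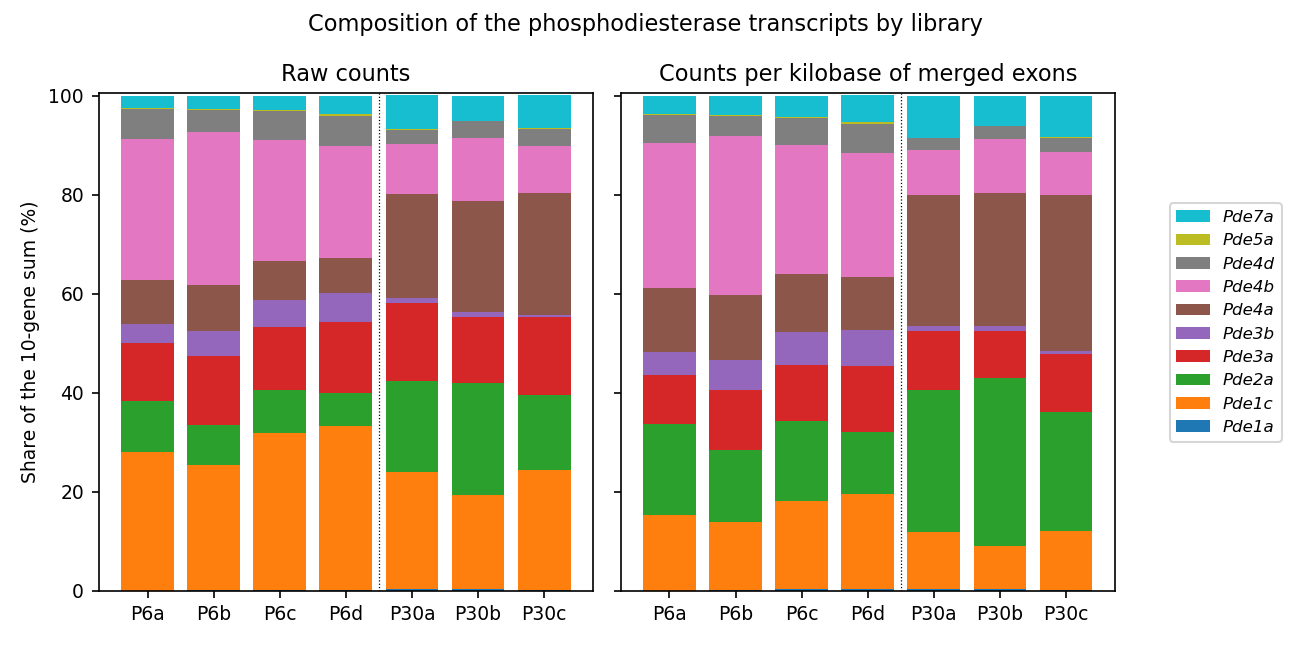
Share of each of the 10 genes in their sum (percent) as stacked bars for each library, from raw counts on the left and from counts per kilobase of merged exons on the right, with a dotted line between the ages. On both scales Pde4b (pink) shrinks and Pde4a (brown) and Pde2a (green) widen from P6 to P30.

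Levels between genes were compared per kilobase, since merged exons ran from 6012 bases for Pde1a to 20067 bases for Pde1c. At P6 Pde4b was highest, with 11.5 ± 2.61 CPM per kilobase, and its range did not overlap that of Pde1c, next with 6.62 ± 0.340. Pde1c, Pde2a (6.31 ± 1.55), Pde4a (4.94 ± 1.04) and Pde3a (4.68 ± 0.474) each overlapped the next in this order, as did Pde3b, Pde4d and Pde7a. At P30 Pde2a (17.4 ± 4.96) and Pde4a (16.6 ± 0.799) were highest and overlapped each other but not Pde3a (6.58 ± 0.901). Pde3a, Pde1c, Pde4b and Pde7a then followed, each overlapping the next, and Pde4d, Pde3b, Pde1a and Pde5a were lowest. The order depends on which length is used: with the longest coding transcript, Pde4a (27.4 ± 1.31) stood above Pde2a (25.4 ± 7.24) at P30, and the 2 still overlapped.

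The list of other phosphodiesterase genes held 14 genes with such symbols, not all of which encode the enzyme. Of these, 7 passed the filter on low counts, Pde6d among them. By edgeR 2 were higher at P30 and 0 lower, beside 26.3% and 27.8% of all tested genes. Pde4c, the fourth gene of the PDE4 group, rose from 0.463 ± 0.138 to 3.03 ± 0.582 CPM, a log2 fold change of 2.70 ± 0.34, and stayed far below Pde4a in counts. Pde8a, a cyclic AMP phosphodiesterase, had 8.99 ± 3.12 and 16.3 ± 5.74 CPM with overlapping ages. Its call (edgeR adjusted p = 0.0367) was lost with library totals and without any of P6a, P6b, P6d, P30a and P30b (edgeR adjusted p up to 0.178). Pde6d, which encodes a prenyl-binding protein, had 32.3 to 39.0 CPM at P6 and 32.2 to 37.2 CPM at P30 and was named after its values were seen.

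Among genes that make the nucleotides, 10 of 13 tested cyclase genes were higher at P30 and 0 lower, beside 26.3% and 27.8% of all tested genes. The median log2 fold change was 1.25 against -0.02 for all tested genes. Of those called, Adcy1, Adcy4, Adcy8, Gucy1a2, Gucy1a3, Gucy1b3 and Npr1 averaged only 1.18 to 12.4 CPM at P30. Adcy4, Adcy9, Gucy1a3, Gucy1b3, Npr1 and Npr2 were highest in P30b, as was the endothelial marker sum, and the other called genes were not. Only Adcy4, Gucy1a3 and Gucy1b3 shared the full P30 order of that sum, with P30a above P30c. In Adcy9, Npr1 and Npr2, P30c was above P30a. Apart from Npr2, these genes were named after their values were seen. The part of endothelial RNA was not tested. Adcy6, a main adenylyl cyclase of the heart, rose from 81.8 ± 19.9 to 132 ± 16.9 CPM, a log2 fold change of 0.69 ± 0.17. Npr2, the receptor guanylyl cyclase for C-type natriuretic peptide, rose from 45.1 ± 7.47 to 86.9 ± 5.04 CPM. Adcy5, the other main cardiac adenylyl cyclase, had 124 ± 25.1 and 133 ± 17.8 CPM and did not pass the test (edgeR adjusted p = 0.642; named after its value was seen). Between 8 and 11 cyclase genes were higher under the alternatives run, and 0 were lower.

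Another list held genes of PKA, protein kinase G, Epac and Popeye proteins, through which the nucleotides act, and of PKA inhibitors. Of 15 tested, 11 were lower and 4 higher, beside 27.8% and 26.3% of all tested genes. The median log2 fold change was -0.48. Both Epac genes rose, Rapgef3 by 2.05 ± 0.33 and Rapgef4 by 1.42 ± 0.16 on the log2 scale. Rapgef3 had 17.8, 25.3 and 8.14 CPM at P30 (a to c), the order of the endothelial marker sum. Rapgef4 had 47.9, 39.5 and 32.5 CPM, which is another order. The part of endothelial RNA in these rises was not tested. Of the PKA inhibitors, Pkib and Pkig were lower and Pkia higher. Rapgef3, Rapgef4, Pkib and Pkig were named after their values were seen. Prkar1a, a regulatory subunit of PKA, fell from 1611 ± 91.6 to 881 ± 71.2 CPM, while Prkar2a, another regulatory subunit, rose from 139 ± 9.86 to 191 ± 10.6 CPM. Popdc2, a cyclic AMP-binding membrane protein, fell from 1617 ± 106 to 1185 ± 49.3 CPM. Pkia, an inhibitor of PKA, rose from 160 ± 5.97 to 326 ± 23.3 CPM. The numbers were 9 to 11 lower and 4 or 5 higher under the alternatives run.

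Anchoring genes went both ways, with 7 of 16 tested higher and 4 lower, beside 26.3% and 27.8% of all tested genes. Scaling by library totals gave 3 higher and 4 lower. Pde4dip, or myomegalin, named for its binding to PDE4D, rose from 1212 ± 231 to 3038 ± 221 CPM, a log2 fold change of 1.33 ± 0.14. Akap1, a PKA anchor of the mitochondrial surface, rose from 260 ± 24.1 to 343 ± 6.82 CPM, a call that was lost with library totals (edgeR adjusted p = 0.0908). Akap2 fell from 232 ± 27.6 to 140 ± 4.01 CPM and Akap8, a nuclear anchor, from 74.6 to 86.3 CPM to 59.8 to 63.4 CPM.

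The list of PKA substrates held 12 genes whose products PKA phosphorylates or that belong to such complexes. Of these, 5 were higher and 2 lower, beside 26.3% and 27.8% of all tested genes. Scaling by library totals gave 3 higher and 4 lower. Ryr2, the calcium release channel, rose by 1.26 ± 0.10 on the log2 scale and Tnni3, cardiac troponin I, by 0.41 ± 0.11, the latter not passing with library totals (edgeR adjusted p = 0.0514). Kcne1, a potassium channel subunit, fell from 693 ± 81.4 to 80.5 ± 19.9 CPM, and Ppp1r1a, a phosphatase inhibitor switched on by PKA, from 9.88 to 14.4 CPM to 1.40 to 1.73 CPM. Pln, phospholamban, did not pass the test (edgeR adjusted p = 0.0928; named after its value was seen). Abcc4, an exporter of cyclic nucleotides, rose from 8.12 ± 1.83 to 17.3 ± 3.52 CPM, and Abcc5, the other exporter listed, had 25.4 to 43.2 CPM at P6 and 36.3 to 39.6 CPM at P30.

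**Figure D5:**
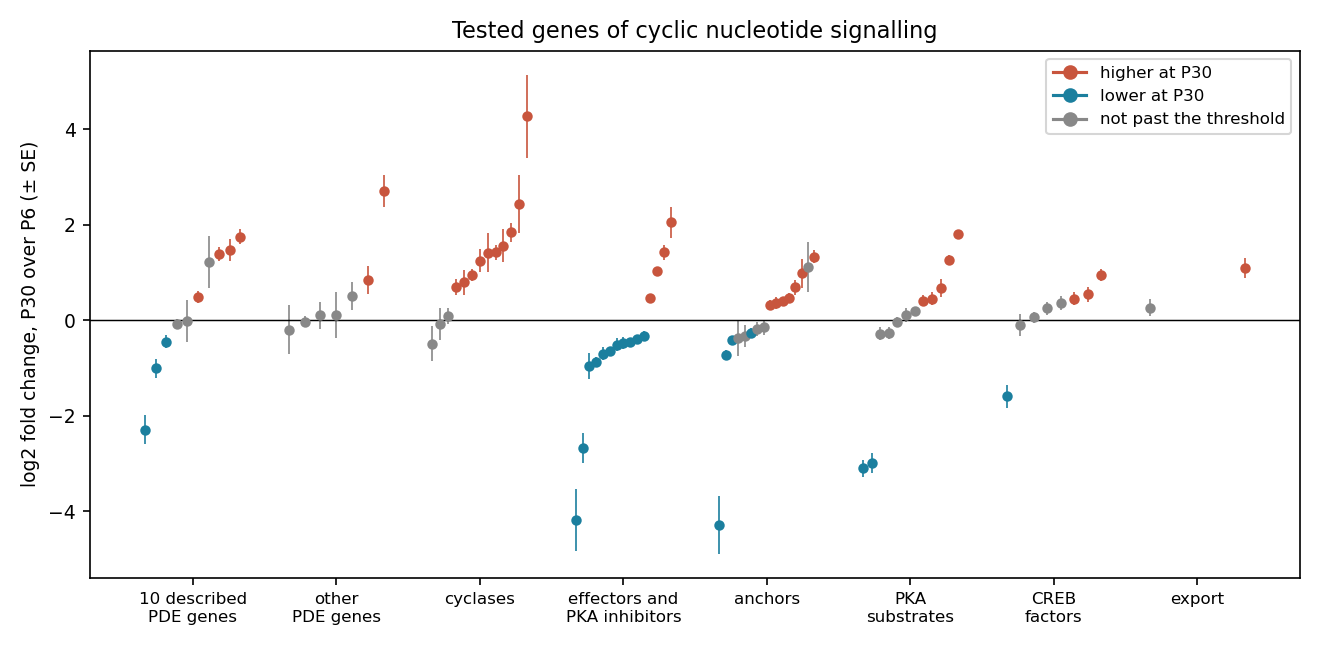
Log2 fold change (P30 over P6, with SE bars) of each tested gene in 8 groups of cyclic nucleotide signalling genes, ordered by value within a group, with red for higher, blue for lower and grey for genes that did not pass the threshold. No cyclase gene is blue, 11 of 15 genes of effectors and PKA inhibitors are blue, and the 10 phosphodiesterases spread to both sides.

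In the authors' deposited table the members had the same calls, 4 higher and 3 lower of 10. That table had the sign of the DESeq2 test run here (P30 over P6) for 19954 of 19954 genes. It is therefore no independent check. The authors' deposited table gave log2 fold changes of 1.77 for Pde4a, 1.48 for Pde2a, 1.41 for Pde7a and 0.51 for Pde3a. The falls in the authors' deposited table were -2.27 for Pde3b, -0.99 for Pde4b and -0.43 for Pde4d.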

How the data were processed

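Per the labels, RNA of sorted cardiomyocytes was amplified with SMART-Seq v4 and made into Nextera XT libraries. The treatment text gives collection at P14; the titles, age labels and design text give P6 or P30 and were used. The authors deposited raw counts per gene on mm10, made with STAR 2.5.3a and featureCounts of Subread 1.5.2, per the submitters' processing notes. Annotation, strand setting and multi-mapping rule: not given in the sources used here. Pde2a, Pde3a, Pde5a and Pde7a overlap exons of other annotated genes, so their counts are less certain. The authors' deposited table, per the file headers, holds baseMean (a signal, scaled counts), fold changes and standard errors on the log2 scale, the Wald statistic (a score), and p-values and adjusted p-values.

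Column letters match no title number, so columns were grouped by age. After filterByExpr and TMM scaling, 12561 genes were compared between ages by the quasi-likelihood test of edgeR 4.0.16 (R 4.3.3), with Benjamini-Hochberg adjustment. SE is the log2 fold change over the square root of its F statistic. The procedure was tested on 3 simulated data sets with 200 changed genes each. In the real data 6797 genes were called, so the simulations did not cover changes this widespread. Libraries of the same age differed by more than sampling noise (chi-square per gene at least 12.3). Annotation was GENCODE M21 (GRCm38, the same assembly as mm10), which matched 22872 symbols. Alternatives were library totals, DESeq2 1.42.0 size factors and test, 2 filters, a length trend removed and single libraries left out. The members and lists were chosen with earlier results of these data known. Named genes are the 10 members and, per pathway list, the 2 with the highest mean CPM among those called in each direction.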

Additional observations from a re-analysis of the deposited data

Results flagged for a closer look

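The share of Pde4d in the 10-gene sum was 4.46% in P6b, against 5.88% to 6.07% in P6a, P6c and P6d. The gap to the nearest library was 0.88 of the range of the 4 libraries, above Dixon's critical value for 4 values. It was the 1 such case among 20 groups of values looked at (CPM and share of 10 genes at P6), and chance gives about 1 in 20.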

How the results depend on the processing

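Of 128 fold changes of the members under the alternatives, 120 kept their direction and their side of the threshold, and the number of members called was 3 or 4 higher and 2 to 4 lower. Pde4a, Pde2a, Pde7a, Pde3b and Pde4b kept their calls in each alternative run, with log2 fold changes of 1.57 to 1.85, 1.27 to 1.67, 1.21 to 1.49, -2.56 to -1.94 and -1.19 to -0.84. Pde5a changed sign around 0, with 0.01 under DESeq2 size factors and -0.24 to 0.26 with single libraries left out. The filter of 1 CPM in 3 libraries removed Pde1a and Pde5a. With library totals 1 other phosphodiesterase gene was higher in place of 2, 3 anchors in place of 7, and 1 gene of the CREB list in place of 3; the CREB list also gave 1 with the length trend removed. PKA substrates gave 3 higher in place of 5 with library totals or without P30a, and 4 lower in place of 2 with library totals. Other phosphodiesterase genes gave 1 higher without any of P6a, P6b, P6d, P30a and P30b, and both exporters were higher without P6b. No paired analysis was possible because the count columns carry letters that the labels tie to no replicate number. Immune markers gave 4 higher in place of 7 without P30b, and smooth muscle and pericyte markers 2 in place of 4 without P30a. Endothelial markers gave 5 higher in place of 7 without P30b. Of 110 mean shares, 28 moved by at least 1 SD, each under a length scaling. Heart muscle markers gave 4 lower in place of 0 with library totals and 2 lower without P6b. Fibroblast markers gave 2 higher in place of 0 with no filter. Pde1a and Pde5a had 50 counts or fewer per library, so counting error weighs most on these members; its part in their results was not tested.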

Other observations

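Genes of the CREB family and its coactivators carry cyclic AMP signals to transcription. Beside 26.3% higher and 27.8% lower among all tested genes, 3 of the 8 tested were higher and 1 lower at P30. Library totals gave 1 higher and 1 lower. The gene that fell was Crem, which encodes cyclic AMP-responsive activators and repressors, from 50.1, 32.3, 23.6 and 29.6 CPM in P6a to P6d to 11.2, 11.8 and 10.6 CPM in P30a to P30c. The ages did not overlap, and P6a was the highest library; the log2 fold change was -1.59 ± 0.24 (edgeR adjusted p = 4.2e-04). Ep300, a histone acetyltransferase that CREB recruits, rose from 25.5 ± 3.14 to 49.3 ± 1.87 CPM. Its relative Crebbp had a log2 fold change of 0.45 ± 0.14, a call that was lost with library totals, with the length trend removed, and without P6c or P30b (edgeR adjusted p up to 0.157).

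Immediate early genes can also be raised by tissue dissociation. By edgeR 9 of 11 tested were higher and 0 lower, beside 26.3% and 27.8% of all tested genes. Fosb and Nr4a1 were not called, and P6a and P6b stood apart from P6c and P6d in these genes and in Fos and Atf3. Fosb had 7.42 and 5.66 CPM in P6a and P6b, 0.0369 and 0.0844 CPM in P6c and P6d, and 1.90 to 4.59 CPM at P30. Fos had 45.0 and 38.3 CPM in P6a and P6b, 6.29 and 15.5 CPM in P6c and P6d, and 354 to 566 CPM at P30. Fos, Fosb, Nr4a1 and Atf3 were named after their values were seen. Jun rose from 141 ± 29.0 to 442 ± 128 CPM and Dusp1 from 92.7 ± 18.7 to 521 ± 69.5 CPM. Their part in the phosphodiesterase differences was not tested.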
